A study of Mus musculus with 60 samples.

Results

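The response of scrambled-control mouse cortical neurons to brain-derived neurotrophic factor (BDNF) after 5 days in vitro (DIV5) was measured in 8 RNA-seq libraries, 4 from cultures without and 4 from cultures with BDNF, out of 48 short-read libraries and 60 samples in the series. The members were taken by their labels alone: every scrambled siRNA (SC) library collected at DIV5, matched between the 2 groups by the culture number 1 to 4. Per the labels, all 8 cultures came from the cerebral cortex of wild-type embryos at embryonic day 18 (the study's text names an earlier embryonic day for its mouse cultures, which was not resolved here), and all received the scrambled siRNA at DIV2, so both groups carry that treatment. The 4 SC+BDNF cultures also received 20 ng/ml BDNF at DIV2. The series compares such cultures with cultures given paxillin siRNA (PXN), also with and without BDNF, at DIV3, DIV5 and DIV10, in a study of the adaptor protein paxillin in neuronal maturation. The values are TPM (a transcript's share of all transcripts, scaled to one fixed total), a level corrected for gene length and library total, which leaves the read depth of each library unknown. Between 21808 and 22749 genes had a value above 0 in the 8 libraries, no 2 libraries were identical, and Pearson's r on log2(TPM + 1) between libraries ran from 0.932 to 0.990. The labels do not say whether the numbered cultures came from separate litters, so p-values measure the spread between numbered cultures. In the limma models that spread was pooled over all libraries fitted, which in most models were more than these 8.

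The cultures held more than neurons. The 8 neuron markers summed to 1533 to 3895 TPM without BDNF and 1537 to 4464 TPM with it, while the 9 astrocyte markers summed to 1407 to 8688 TPM without BDNF and 1514 to 6869 TPM with it and the 9 oligodendrocyte lineage markers to 1682 to 5558 TPM without BDNF and 1437 to 6055 TPM with it. Culture 3 stood apart in both groups, with the most neuron marker RNA and the least astrocyte marker RNA. Because these are bulk cultures, fewer cells of a type and less RNA per cell cannot be told apart. None of the marker lists had a member called in the unpaired or the paired model described below, and no marker was at 0 in all 8 libraries. The library numbers (S numbers) in the column names also differed: the BDNF libraries of cultures 1 and 2 carry 77 and 78, whereas their partners without BDNF carry 1 and 2. The pairs of cultures 3 and 4 both carry low numbers, at 4 and 9 and at 11 and 13. What these numbers record beyond an index of the library is not given in the sources used here.

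BDNF is a secreted neurotrophin that binds the receptor tyrosine kinase TrkB (gene *Ntrk2*) on neurons. Through TrkB it activates the Ras and extracellular signal-regulated kinase (ERK) cascade, phospholipase C gamma and phosphatidylinositol 3-kinase. ERK signaling first induces immediate early genes, which encode short-lived transcription factors, and then inhibitors that dampen the cascade. In cortical cultures BDNF is known as a strong inducer of neuropeptide genes, among them those made by GABAergic interneurons.

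Unpaired and paired models were fitted with limma to log2(TPM + 1) of 14250 genes, those averaging 1 TPM or more over the 48 short-read libraries. The unpaired model held all 48 libraries, and called 7 genes at a Benjamini-Hochberg adjusted p below 0.05, 1 higher (0.00702%) and 6 lower (0.0421%) with BDNF (0.0491% of the genes tested; 1268 had an unadjusted p below 0.05). The culture numbers paired the SC libraries, since those of the same number deviated together. The paired model therefore held the culture number as a block in the 19 libraries collected at DIV5, SC and PXN, and called 176 genes (1.24%), 82 higher (0.575%) and 94 lower (0.66%). All 7 unpaired calls were among them. A paired model of the 8 SC libraries alone called 20 genes (0.14%), 8 higher (0.0561%) and 12 lower (0.0842%), of which 13 were also called with 19 libraries. The groups did not overlap at all, with every BDNF library above or below every library without BDNF, for 557 genes (3.91%), 220 of them higher (1.54%) and 337 lower (2.36%).

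The size of the paired result rested on cultures 1 and 2. Leaving out a culture number removed its SC and PXN libraries together. The paired count was then 1 without number 1 and 3 without number 2, but 1599 without number 3 and 984 without number 4. In the 8 SC libraries alone the paired count of 20 became 3, 0, 1533 and 29 without cultures 1 to 4. With a term for S numbers above 60 in the paired model 1 gene remained, *Crh*. In SC cultures 1 and 2 that term separates the same libraries as BDNF does. A factor for the S-number range in the unpaired model gave 19 genes, with 6 of the 7 unpaired calls among them. That factor also held a level of its own for libraries of culture number 11 with low S numbers. Cultures 3 and 4 alone, where S numbers do not separate the groups, gave only 2 libraries against 2. There the unpaired limma model called 0 genes (58 had an unadjusted p below 0.05). The difference was larger in size in cultures 1 and 2 than in cultures 3 and 4 for 166 of the 176. The same count over all genes tested was not made, so this share has no background beside it. The part of the library numbers in the result was not tested further. Below, "rose" or "fell" refers to the paired model of 19 libraries unless another is named.

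The count also depended on how SC and PXN libraries were tied. Same-numbered SC and PXN libraries deviated together less closely than the SC pairs did. Without BDNF, r across genes was 0.244 in culture 1, 0.467 in culture 2, 0.488 in culture 3 and 0.248 in culture 4. With BDNF it was 0.0793, 0.366 and 0.348 in cultures 1, 2 and 4. Culture 1 was not matched best to its own number, since its highest r with another number was 0.249 without and 0.217 with BDNF. The paired model of 19 libraries nevertheless ties these libraries in 1 block. A model with a separate block for each culture of each siRNA, added after these values were seen, called 1513 genes (10.6%), 619 higher and 894 lower, all 176 included. With the S-number term that model called 0 (1010 had an unadjusted p below 0.05). There the S-number range changes within a block only in SC cultures 1 and 2. The SC difference in that fit therefore came from cultures 3 and 4 alone, and the loss of calls cannot show what the S numbers contribute. Without that term, the model called 894 of all 14250 genes lower. Among these were 3 of 17 neurotrophin system genes (*Ntrk2*, *Ntrk3* and *Sorcs2*) and 9 of 26 presynaptic genes. Also lower were 7 of 22 genes of the amino acid stress response and 5 of 23 of cholesterol synthesis and uptake. Of 20 postsynaptic genes 7 were lower and 1 higher, and of 18 cortical layer genes 6 were lower and 1 higher. Of 18 neuropeptide and activity-regulated secreted protein genes 10 were higher and 0 lower. The model without that term also called cell type markers. Higher were *C1qa* and *Cx3cr1* among 6 tested microglia markers, *Cldn5* among 2 of endothelium and *S100b* among 9 of astrocytes. Of 9 oligodendrocyte lineage, 7 fibroblast and meningeal and 4 red blood cell markers, 0 were called. Over all 14250 genes 619 were higher. Of 9 progenitor markers 4 were higher and 1 lower, and of 8 neuron markers 1, *Rbfox3*, was lower.

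Several genes for secreted peptides rose. Of the 18 tested members of the list of neuropeptides and activity-regulated secreted proteins, 6 rose, 0 fell and 12 did not pass. The median difference of the list was 0.86 on the log2 scale, beside -0.01 over all genes, and 10 members were higher in all 4 cultures, as were 12.6% of all genes. *Vgf*, *Npy*, *Sst*, *Cort*, *Tac1* and *Crh* were the members that rose. *Crhbp*, which is not on the list, was the single gene called higher by the unpaired model.

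*Vgf* encodes a precursor of several secreted neuropeptides and is a classic neurotrophin-induced gene. It stood at 13.7, 23.9, 46.1 and 25.7 TPM without BDNF in cultures 1 to 4 and 237, 219, 303 and 100.1 TPM with it. Every BDNF library lay above every library without BDNF, and the increase ran from 3.89-fold in culture 4 to 17.3-fold in culture 1. The fitted difference was 2.94 ± 0.46 (SE) on the log2 scale, with a limma adjusted p of 0.0163 in the paired model and 0.199 in the unpaired one.

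*Npy*, the gene for neuropeptide Y, stood at 13.8, 22.1, 23.4 and 28.8 TPM without BDNF in cultures 1 to 4 and 383, 643, 69.8 and 171 TPM with it. The groups did not overlap, and the ratios of 27.8, 29.1, 2.98 and 5.92 were much larger in cultures 1 and 2 than in the other two. The difference was 3.39 ± 0.59 (limma adjusted p = 0.0263, paired). *Sst*, which encodes somatostatin, the peptide of a main interneuron class, was the most abundant of these genes, at 128, 431, 47.3 and 483 TPM without BDNF in cultures 1 to 4 and 3115, 2565, 239 and 1295 TPM with it. It was higher in all 4 cultures, yet the groups overlapped because culture 3 with BDNF remained below cultures 2 and 4 without it. The paired difference of *Sst* was 2.73 ± 0.53 (limma adjusted p = 0.0404).

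*Cort*, for the somatostatin-related peptide cortistatin, followed the same order of cultures as *Sst*, with 8.66, 24.3, 1.17 and 34.3 TPM without BDNF in cultures 1 to 4 and 334, 226, 9.92 and 59.9 TPM with it (difference 2.85 ± 0.60, limma adjusted p = 0.0445, paired). Its groups overlapped, and culture 4 gave the smallest ratio, 1.75. *Tac1*, the precursor of substance P, stood at 4.25, 6.96, 0.702 and 11.7 TPM without BDNF in cultures 1 to 4 and 64, 65.9, 10.8 and 18.3 TPM with it (difference 2.52 ± 0.50, limma adjusted p = 0.0409, paired). Here too culture 4 changed least, 1.56-fold against 9.47-fold or more in the other cultures.

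*Crh*, for corticotropin-releasing hormone, was the most even of the peptide genes that rose. It stood at 21.1, 29.7, 3.8 and 17.5 TPM without BDNF in cultures 1 to 4 and 107, 138, 14.8 and 74.5 TPM with it, ratios of 5.09, 4.65, 3.9 and 4.27. The levels of the groups overlapped through culture 3, but the differences within cultures hardly varied, and the paired difference of 2.06 ± 0.18 had a limma adjusted p of 0.00029. It was also called in the paired model of the 8 SC libraries (limma adjusted p = 0.00289) and with the S-number term (limma adjusted p = 0.0336).

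*Crhbp*, the gene for the secreted protein that binds corticotropin-releasing hormone, was almost silent without BDNF. It stood at 0.471, 0.441, 0.0751 and 0.83 TPM without BDNF in cultures 1 to 4 and 37, 24.8, 1.47 and 9.31 TPM with it. The groups did not overlap, and the unpaired difference was 3.14 ± 0.64 (limma adjusted p = 0.0399; paired, 0.0227). Its mean was 0.454 ± 0.308 TPM without and 18.1 ± 15.9 TPM with BDNF (SD, n = 4 each). *Crhbp* was below 1 TPM in every SC library without BDNF at DIV5 and DIV3, so libraries with BDNF helped it pass the 1 TPM limit.

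**Figure D1:**
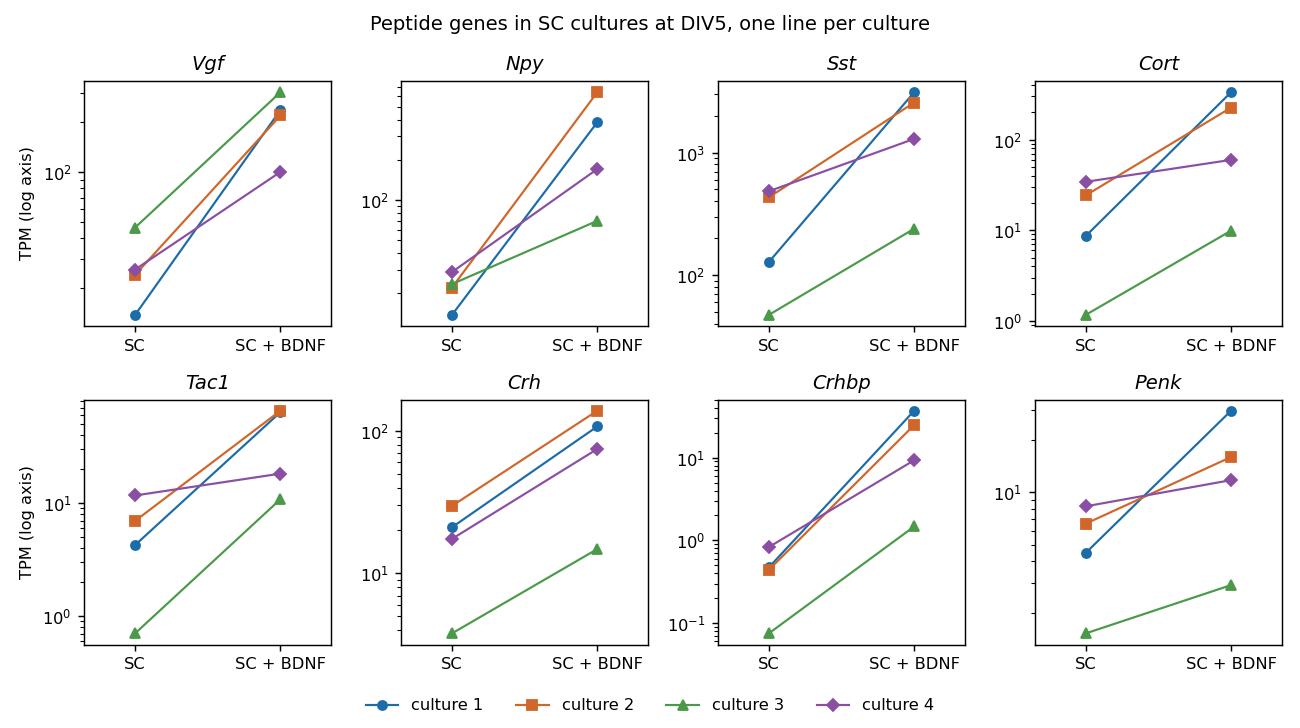
TPM (log axis) of 8 peptide-related genes in SC cultures without and with BDNF at DIV5, with one line and symbol per culture. Every line goes up, steepest mostly in cultures 1 and 2; *Penk* is drawn beside the 7 genes that rose and did not pass the test, and the culture 3 line (green) is lowest for *Sst*, *Cort*, *Tac1*, *Crh*, *Crhbp* and *Penk*.

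Other members of the list did not pass. *Penk*, for proenkephalin, was at 4.47, 6.6, 1.53 and 8.31 TPM without BDNF in cultures 1 to 4 and 29.7, 16, 2.91 and 11.8 TPM with it (limma adjusted p = 0.0849, paired), and *Vip*, for vasoactive intestinal peptide, at 8.54, 11.3, 0.27 and 17.1 TPM without BDNF in cultures 1 to 4 and 30.2, 24.9, 0.562 and 23.7 TPM with it (adjusted p = 0.279). Both were higher in 4 of 4 cultures. *Cck* and *Inhba*, for cholecystokinin and the inhibin beta A subunit, were lower in 4 of 4 cultures without passing, with differences of -0.56 ± 0.24 and -1.40 ± 0.60 (adjusted p = 0.166 and 0.175).

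General interneuron genes were a separate list and 0 of its 17 tested members passed in either direction, with a median of 0.17. *Gad1* and *Gad2*, for the enzymes that make GABA, were higher in all 4 cultures, at differences of 0.40 ± 0.21 and 0.59 ± 0.23 (limma adjusted p = 0.273 and 0.141). *Lhx6*, a transcription factor of the lineage that gives rise to somatostatin interneurons, was at 34.1, 29.8, 13.3 and 24.3 TPM without BDNF in cultures 1 to 4 and 36, 44.9, 13 and 22.3 TPM with it. Its groups overlapped throughout, with a difference of 0.13 ± 0.20. Prohormone processing and dense-core vesicle genes likewise had 0 of 14 members called (median -0.04). Within that list *Syt4*, for a vesicle synaptotagmin, was lower in all 4 cultures, at 1649.5, 1116, 1389 and 703 TPM without BDNF in cultures 1 to 4 and 682, 336, 988 and 188 TPM with it (difference -1.35 ± 0.35, limma adjusted p = 0.0596).

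Promoter sequence was available from RefSeq (GRCm38.p6) for some of these genes, and is shown for 3 peptide genes that rose, for the ERK phosphatase gene *Dusp5* and for the most strongly reduced unpaired call, *Cacna1i*. Each run is the 250 bases before an annotated transcript start, 5′ to 3′. Capitals mark a match on either strand to the cAMP response element (CRE, TGACGTCA) or the serum response element, 2 sequences through which calcium, cAMP and ERK signals are known to reach genes.
Sst (chr16:23890845-23891094, minus strand): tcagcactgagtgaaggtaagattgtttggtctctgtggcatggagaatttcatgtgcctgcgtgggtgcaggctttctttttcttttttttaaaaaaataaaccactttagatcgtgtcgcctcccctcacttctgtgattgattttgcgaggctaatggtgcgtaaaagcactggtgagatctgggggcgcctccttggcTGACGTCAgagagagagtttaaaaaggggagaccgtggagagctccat
Npy (chr6:49822460-49822709, plus strand): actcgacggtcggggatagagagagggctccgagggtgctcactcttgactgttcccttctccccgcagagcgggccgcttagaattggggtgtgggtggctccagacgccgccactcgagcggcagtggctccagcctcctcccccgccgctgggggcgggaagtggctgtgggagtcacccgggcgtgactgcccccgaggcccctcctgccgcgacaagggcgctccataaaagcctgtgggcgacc
Crhbp (chr13:95444832-95445081, minus strand): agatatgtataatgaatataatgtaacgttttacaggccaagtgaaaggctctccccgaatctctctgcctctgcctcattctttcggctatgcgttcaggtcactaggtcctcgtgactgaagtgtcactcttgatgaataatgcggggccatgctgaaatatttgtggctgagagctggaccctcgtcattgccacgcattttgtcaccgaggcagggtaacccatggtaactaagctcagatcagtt
Dusp5 (chr19:53528895-53529144, plus strand): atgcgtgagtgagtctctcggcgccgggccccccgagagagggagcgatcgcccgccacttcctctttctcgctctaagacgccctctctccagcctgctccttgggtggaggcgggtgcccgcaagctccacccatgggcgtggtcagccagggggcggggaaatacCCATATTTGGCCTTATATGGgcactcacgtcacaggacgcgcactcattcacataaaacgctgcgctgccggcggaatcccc
Cacna1i (chr15:80286988-80287237, plus strand): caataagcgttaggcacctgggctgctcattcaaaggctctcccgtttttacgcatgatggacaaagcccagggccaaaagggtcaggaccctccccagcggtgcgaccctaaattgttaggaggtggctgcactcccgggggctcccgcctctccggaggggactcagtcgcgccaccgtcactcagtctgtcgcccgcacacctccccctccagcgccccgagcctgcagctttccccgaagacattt
The *Sst* window held 1 CRE, from 48 to 41 bases before the start, and 1.55% of all 32851 promoter windows of this length held one. The *Dusp5* window held 2 adjoining serum response elements between 82 and 63 bases before the start, a motif in 1.47% of windows. The windows of *Npy*, *Crhbp* and *Cacna1i* held no match to any of the 5 motifs searched, which besides these were AP-1 (TGANTCA, 6.75% of windows), EGR (GCGTGGGCG, 0.536%) and the sterol element (TCACNCCAC, 1.05%), each on both strands, and no 2 motifs overlapped in the windows shown. Of 49 called genes examined, those described in the text with *Adamts15*, *Cpne7* and *Trmt9b*, 33 had a window, and of these 1 held a CRE, 2 held AP-1 (*Col6a1* and *Rorb*) and 1 the serum response element. These matches describe letters, and no binding was measured.

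Genes of the ERK pathway that restrain or report its activity included several that rose. Of 17 members 4 rose, 0 fell and 13 did not pass, with a list median of 0.23. *Spred3*, a membrane-bound inhibitor of Ras to ERK signaling, was at 16.3, 21.7, 60.8 and 22.6 TPM without BDNF in cultures 1 to 4 and 46.2, 62.4, 129.7 and 43.9 TPM with it. The ratios were 2.84, 2.88, 2.14 and 1.95, but culture 3 without BDNF lay above 2 of the BDNF libraries. The paired difference was 1.24 ± 0.22 (limma adjusted p = 0.0287; 0.0274 in the 8 SC libraries).

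*Dusp5*, a nuclear phosphatase that inactivates ERK, was at 1.5, 1.93, 0.738 and 1.81 TPM without BDNF in cultures 1 to 4 and 5.61, 2.93, 2.8 and 3.13 TPM with it. The groups did not overlap (difference 0.88 ± 0.19, limma adjusted p = 0.046, paired). *Spry4*, a Sprouty inhibitor of receptor tyrosine kinase signaling, was at 6.06, 7.33, 11.3 and 7.91 TPM without BDNF in cultures 1 to 4 and 13.7, 13.1, 18.8 and 11.8 TPM with it. *Etv5*, an ETS transcription factor that is a target of the pathway, was at 7.61, 9.25, 10.7 and 13.1 TPM without BDNF in cultures 1 to 4 and 15.2, 15, 20.2 and 16.7 TPM with it. In both genes the groups were separate and no ratio exceeded 2.26, with differences of 0.76 ± 0.13 and 0.68 ± 0.14 (limma adjusted p = 0.028 and 0.043).

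The phosphatase genes *Dusp6* and *Dusp4* were higher in 4 of 4 cultures without passing. *Dusp6*, which inactivates ERK in the cytoplasm, differed by 0.56, 0.60, 0.59 and 0.61 in cultures 1 to 4, nearly the same amount in each, while its level in culture 3 without BDNF, 159 TPM, was above that of all other libraries but its own partner. Its limma adjusted p was 0.279 with 19 libraries and 0.0564 with the 8 SC libraries. *Dusp4* differed by 0.66 ± 0.22 (adjusted p = 0.102).

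Immediate early genes showed no such pattern at DIV5. None of the 22 passed in either model, their median was -0.21, and 3 were higher and 2 lower in all 4 cultures. *Egr1*, the prototype of the family, was at 453, 323, 66.7 and 138 TPM without BDNF in cultures 1 to 4 and 179, 106, 78.6 and 85.3 TPM with it, lower in 3 cultures and higher in culture 3. *Fos* was at 73.9, 72, 9.78 and 43.5 TPM without BDNF in cultures 1 to 4 and 98.6, 26.1, 24.5 and 28.1 TPM with it, with the direction split between cultures 1 and 3 and cultures 2 and 4. *Arc*, whose protein acts at synapses, was at 14, 16.4, 7.03 and 13.6 TPM without BDNF in cultures 1 to 4 and 17.5, 16.6, 18.6 and 19.9 TPM with it, separate between the groups although culture 2 hardly differed (difference 0.53 ± 0.17, limma adjusted p = 0.0923). *Npas4*, an activity-induced factor, differed by -0.24 ± 0.17.

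SC cultures collected at DIV3 gave other values for these genes. Because BDNF was added at DIV2 in these cultures too, culture age and time since BDNF cannot be told apart. With BDNF likewise added at DIV2, the contrast of 3 libraries with and 3 without BDNF had 172 genes called in the unpaired model (1.21%), 147 higher (1.03%) and 25 lower (0.175%). Each DIV3 pair falls within 1 range of S numbers. The response at DIV5 was below that at DIV3 for 14 genes by the test of the difference itself (0.0982%), and above it for 0. *Egr2*, *Egr1* and *Arc* led these: *Egr2* differed by 6.35, 4.07 and 5.06 on the log2 scale in the 3 DIV3 cultures and by -0.23, -0.41, 0.63 and -0.12 in the 4 DIV5 cultures (change in response -5.19 ± 0.54, limma adjusted p = 1.21e-07). *Egr1* differed by 4.95, 3.33 and 4.13 at DIV3 and -1.34, -1.60, 0.23 and -0.69 at DIV5 (-4.99 ± 0.71, adjusted p = 0.00015). For *Arc* the values were 5.64, 3.99 and 4.78 at DIV3 and 0.30, 0.01, 1.29 and 0.52 at DIV5 (-4.27 ± 0.63, adjusted p = 0.0002). In all 3 genes every DIV3 culture lay above every DIV5 culture.

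Others among the 14 were *Nab2*, a corepressor of the EGR factors (2.39 ± 0.28 at DIV3 and 0.40 ± 0.24 at DIV5), *Peg10*, an imprinted gene of retrotransposon origin (3.79 ± 0.46 and 0.13 ± 0.39), *Slc7a1*, a transporter of cationic amino acids (1.42 ± 0.33 and -0.89 ± 0.29), and *Psph*, the last enzyme of serine synthesis (1.10 ± 0.21 and -0.29 ± 0.18). The remaining 7 were *Clcn5*, *Efr3a*, *Fam131a*, *Fibcd1*, *Galnt7*, *Galr1* and *Gpr63*. The ERK feedback genes were not among them, although the median of their list was 1.16 at DIV3 and 0.23 at DIV5. The fitted values at DIV3 and DIV5 were 2.16 and 0.59 for *Dusp6* and 2.04 and 0.66 for *Dusp4*. For *Etv5* they were 1.93 and 0.68, and for *Spry4* 1.74 and 0.76. *Dusp5* differed by 2.19 ± 0.39 at DIV3 and 0.88 ± 0.34 at DIV5 and *Spred3* by 1.44 ± 0.45 and 1.24 ± 0.39, with adjusted p for the change in response of 0.411 and 0.981. The change in response was not called for the peptide genes either: the values at DIV3 and DIV5 were *Vgf* 3.19 ± 0.95 and 2.94 ± 0.83, *Npy* 2.79 ± 0.87 and 3.39 ± 0.75, *Sst* 2.32 ± 1.32 and 2.73 ± 1.15. The adjusted p for the change was 0.992, 0.958 and 0.989, with standard errors of 1.26, 1.15 and 1.75 log2 units.

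**Figure D2:**
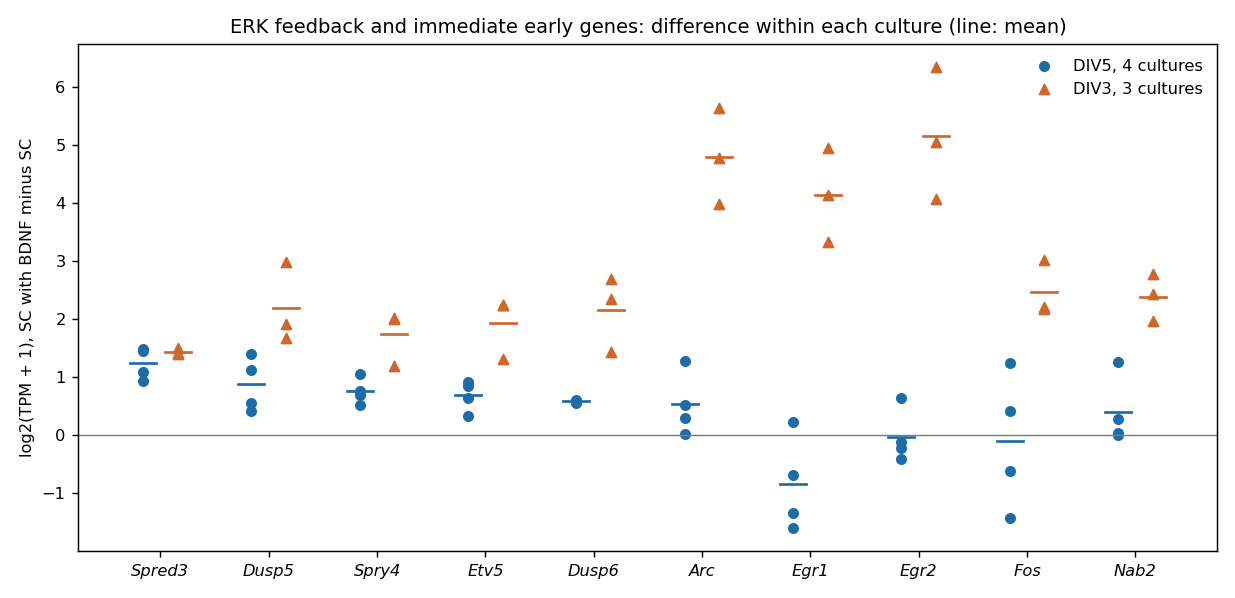
Difference in log2(TPM + 1) between SC cultures with and without BDNF, one point per culture, at DIV5 (circles, 4 cultures) and DIV3 (triangles, 3 cultures), with the mean as a line, for 5 ERK feedback genes, 4 immediate early genes and *Nab2*. The triangles of *Arc*, *Egr1* and *Egr2* lie above 3, whereas their circles lie between -1.60 and 1.29. *Spred3* is at a similar height on both days of collection, which differ in culture age and in time since BDNF. The mean lines of the other ERK feedback genes, *Dusp5*, *Spry4*, *Etv5* and *Dusp6*, lie lower at DIV5.

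At DIV10 the contrast of SC cultures called 0 genes in the unpaired limma model (352 had an unadjusted p below 0.05), and 0 genes differed in response between DIV5 and DIV10 (233 below 0.05 unadjusted). The fitted values at DIV10 were 2.35 ± 1.32 for *Sst*, 2.30 ± 0.87 for *Npy*, 2.55 ± 0.80 for *Tac1* and 2.47 ± 0.74 for *Crhbp*, but 0.35 ± 0.95 for *Vgf* and 0.15 ± 0.45 for *Spred3*. The difference between these days of collection was not called for any of them.

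BDNF's own receptor system did not pass. Of 17 tested genes for neurotrophins, Trk receptors and adaptors 0 were called in either model, with a median of -0.16. *Ntrk2* was at 69.7, 92.9, 32 and 99.3 TPM without BDNF in cultures 1 to 4 and 48.2, 51, 30.6 and 61.4 TPM with it, lower in 4 of 4 cultures but almost equal in culture 3 (difference -0.53 ± 0.14, limma adjusted p = 0.0624, paired). *Ntrk3*, for the NT-3 receptor TrkC, was lower in 4 of 4 cultures as well (-0.47 ± 0.15, adjusted p = 0.0862). The p75 receptor gene *Ngfr* was at 1.34, 2.93, 2.26 and 4.72 TPM without BDNF in cultures 1 to 4 and 1.57, 2.29, 1.11 and 2.35 TPM with it, with overlapping groups. *Bdnf* itself was at 0.929, 1.1, 0.768 and 1.09 TPM without BDNF in cultures 1 to 4 and 8.81, 1.08, 1.84 and 0.626 TPM with it, so that culture 1 with BDNF stood far above the others, which lay below 2 TPM. *Ntf3*, for the neurotrophin NT-3, had a mean below the 1 TPM limit and was not tested; it was at 0.828, 0.404, 1.53 and 0.309 TPM without BDNF in cultures 1 to 4 and 0.109, 0.043, 0.344 and 0.0463 TPM with it, lower in each culture.

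*Pxn*, the gene for paxillin, did not pass the test in these SC cultures. It was at 13.1, 19.9, 12.4 and 16.4 TPM without BDNF in cultures 1 to 4 and 14.3, 17.9, 10.04 and 19 TPM with it, higher in cultures 1 and 4 and lower in cultures 2 and 3. The difference was -0.03 on the log2 scale, with a 2-sided exact permutation p of 0.943 (n = 4 against 4; the smallest p possible is 0.0286). The list of *Pxn* and its partners at focal adhesions had 0 of 18 members called (median -0.04). The most abundant listed genes, *Cdk5r1*, *Git1*, *Ilk* and *Itgb1*, differed by -0.01 ± 0.15, -0.26 ± 0.16, 0.14 ± 0.09 and 0.14 ± 0.13. Of these, *Cdk5r1* encodes an activator of the kinase CDK5 and is not a focal adhesion partner. Splicing factor genes named by the study had 0 of 14 called (median 0.09), with *Srsf1*, *Srsf2*, *Srsf3* and *Sf3b1* at 0.20 ± 0.14, 0.18 ± 0.10, 0.14 ± 0.14 and 0.03 ± 0.10.

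The genes that fell are given next, first those called in the unpaired model. *Cacna1i* (chr15:80287238-80398292, GRCm38.p6), for the low-voltage-activated calcium channel Cav3.3, had the smallest adjusted p of the genes that fell. It was at 48.1, 33.3, 37.9 and 14.9 TPM without BDNF in cultures 1 to 4 and 8.59, 5.84, 9.03 and 4.07 TPM with it, and no library with BDNF reached the lowest without it. The difference was -2.07 ± 0.34 (unpaired, limma adjusted p = 0.00612) and was called in both paired models as well (adjusted p = 0.00224 with 19 and 0.00569 with 8 libraries), though not with the S-number term (0.172). In cultures 3 and 4 alone it was -1.80 ± 0.49.

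*Cntn6*, for the neuronal adhesion molecule contactin 6, was at 4.02, 2.64, 1.23 and 1.98 TPM without BDNF in cultures 1 to 4 and 0.671, 0.596, 0.373 and 0.627 TPM with it, with separate groups (difference -1.09 ± 0.19, limma adjusted p = 0.00714, unpaired). *Grm3*, the gene for the metabotropic glutamate receptor mGlu3, was at 9.75, 5.57, 3.49 and 6.14 TPM without BDNF in cultures 1 to 4 and 1.26, 1.2, 2.21 and 2.88 TPM with it, also separate (-1.30 ± 0.27, adjusted p = 0.0399). For *Grm3* the fall was large in cultures 1 and 2 and modest in cultures 3 and 4. *Rps6ka2*, for RSK3, a kinase downstream of ERK, was at 5.26, 3.86, 5.12 and 3.41 TPM without BDNF in cultures 1 to 4 and 2.27, 2.18, 3.1 and 2.34 TPM with it (-0.63 ± 0.13, adjusted p = 0.0399), largest in culture 1. *Ccdc184* was at 254, 181, 162 and 158 TPM without BDNF in cultures 1 to 4 and 124, 81.1, 121 and 82.9 TPM with it (-0.88 ± 0.18, adjusted p = 0.0399). *Rims3*, whose protein acts at the presynaptic active zone, was at 72.3, 60.6, 80.8 and 47.6 TPM without BDNF in cultures 1 to 4 and 29.7, 25.9, 55.9 and 24.2 TPM with it (-0.98 ± 0.20, adjusted p = 0.0399), where culture 3 with BDNF overlapped the group without it.

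The paired model added further falls. *Syt10*, for a synaptotagmin of secretory vesicles, was at 7.38, 5.52, 2.94 and 6.43 TPM without BDNF in cultures 1 to 4 and 2.43, 1.11, 1.001 and 2.28 TPM with it, with separate groups and ratios of 0.33, 0.201, 0.34 and 0.354 (limma adjusted p = 0.00528). *Robo3*, for an axon guidance receptor, was at 31.8, 25.7, 12.4 and 4.68 TPM without BDNF in cultures 1 to 4 and 2.63, 2.004, 7.31 and 0.934 TPM with it. It was lower in each culture with overlapping groups, a difference of -2.14 ± 0.42 (limma adjusted p = 0.0404). *Mafa*, a large Maf transcription factor, was at 41.5, 19.4, 11 and 6.32 TPM without BDNF in cultures 1 to 4 and 4.12, 4.29, 2.1 and 4.59 TPM with it (adjusted p = 0.0409); culture 4 differed least. *Kcnh1*, for a voltage-gated potassium channel, fell by 1.13 ± 0.21 and *Adcy1*, for a calcium-stimulated adenylyl cyclase, by 1.04 ± 0.23, both with separate groups (adjusted p = 0.0345 and 0.046). *Ptprk*, a receptor tyrosine phosphatase, had ratios of 0.371, 0.358, 0.411 and 0.414 (adjusted p = 0.046), within a narrow range, although the groups overlapped.

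The rule for named genes gave 5 other falls: *Slc6a11*, for the GABA transporter GAT3 (-1.12 ± 0.21), *Coch*, for the extracellular protein cochlin (-1.14 ± 0.25), *Tmem215* (-1.05 ± 0.22), *Otof*, for the calcium sensor otoferlin (-1.04 ± 0.20), and *Trim16* (-0.98 ± 0.19), with limma adjusted p between 0.0399 and 0.046 in the paired model. In these 5 the ratio of BDNF to no BDNF was between 0.124 and 0.36 in culture 1 except for *Coch* at 0.437, and the groups did not overlap.

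**Figure D3:**
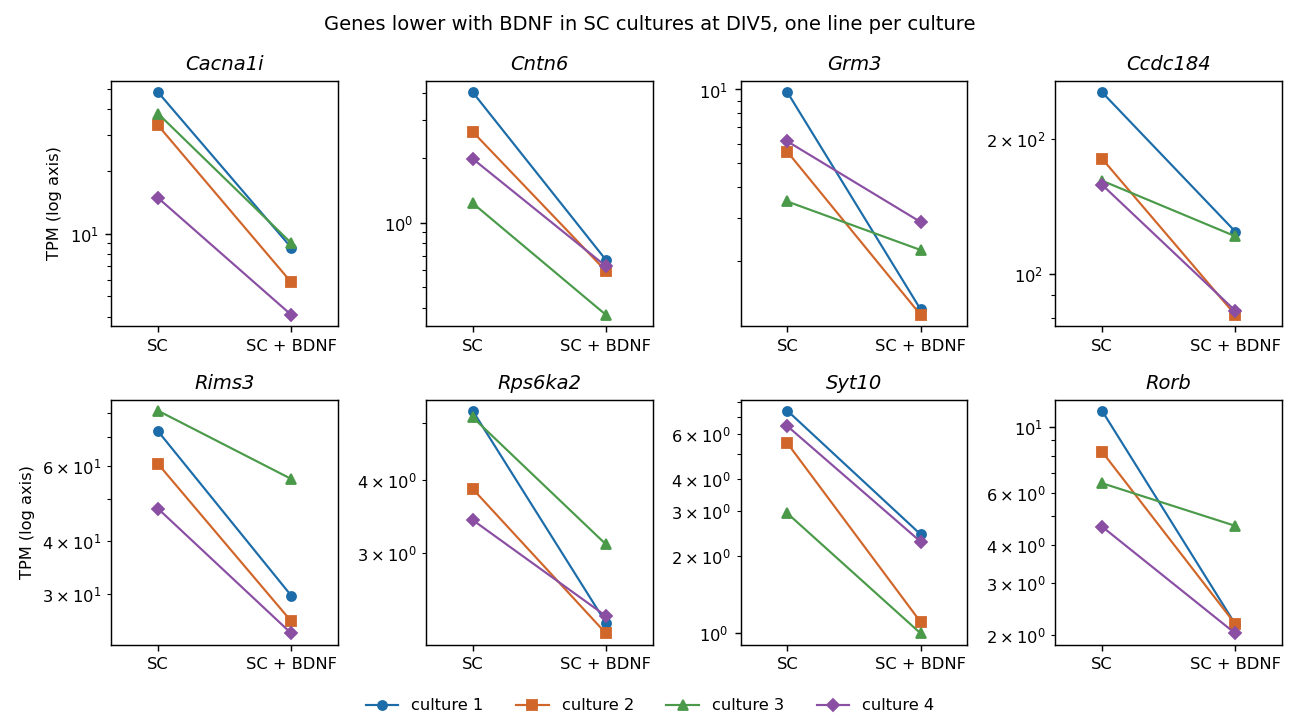
TPM (log axis) of 8 genes lower with BDNF in SC cultures at DIV5, with one line and symbol per culture. All lines go down; those of *Cacna1i* and *Syt10* are nearly parallel, while *Grm3* and *Rorb* drop most in cultures 1 and 2.

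Lists of synaptic and channel genes had medians below that of all genes, with few members called. These lists do not hold every such gene: *Rims3*, *Syt10* and *Kcnh1*, which fell as given above, were not members. Glutamate receptor subunits had 1 of 17 fall, *Grm3*, and a median of -0.22. Presynaptic genes had 1 of 26 fall, *Sv2b*, for a synaptic vesicle protein, at 17.3, 9.8, 4.57 and 9.06 TPM without BDNF in cultures 1 to 4 and 5.74, 3.04, 2.94 and 3.7 TPM with it (limma adjusted p = 0.0428; median of the list -0.31, 11 members lower in all 4 cultures beside 17.4% of all genes). Postsynaptic scaffolds and CaM kinases had 1 of 20 fall, *Shank1*, at 291, 216, 235 and 103 TPM without BDNF in cultures 1 to 4 and 126, 137, 139 and 90.6 TPM with it (adjusted p = 0.0464; median -0.24, 10 lower in all 4 cultures). *Camk2a*, for the alpha subunit of the kinase, was at 142, 78.7, 45.4 and 28.6 TPM without BDNF in cultures 1 to 4 and 50.1, 25.1, 39.7 and 16.3 TPM with it without passing (adjusted p = 0.0615).

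GABA-A receptor subunits had 0 of 11 called and a median of -0.41, with culture 3 at 0.18 against -0.38, -0.62 and -0.72 in cultures 1, 2 and 4. Among the more abundant subunit genes, *Gabrb2* and *Gabrd* differed by -0.18 ± 0.29 and -0.46 ± 0.19. The list of voltage-gated sodium and potassium channels had a median of -0.36 over 23 members, yet the 1 call on it was a rise. *Kcnh1*, a potassium channel gene outside the list, fell. *Kcna1*, for the potassium channel Kv1.1, was at 34.2, 57.1, 40.3 and 45.2 TPM without BDNF in cultures 1 to 4 and 94.2, 93.9, 71.7 and 69.8 TPM with it, with separate groups (difference 0.90 ± 0.20, limma adjusted p = 0.046).

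Of 18 cortical layer genes 2 fell and 0 rose (median -0.29). *Rorb*, a nuclear receptor that marks layer 4, was at 11.3, 8.25, 6.46 and 4.62 TPM without BDNF in cultures 1 to 4 and 2.17, 2.18, 4.65 and 2.03 TPM with it, and *Rasgrf2*, an exchange factor enriched in upper layers, at 8.81, 4.83, 11.8 and 3.12 TPM without BDNF in cultures 1 to 4 and 1.98, 1.5, 5.45 and 0.978 TPM with it. Both fell in each culture and overlapped between groups (differences -1.20 ± 0.22 and -1.25 ± 0.22, limma adjusted p = 0.0321 and 0.028). Immature neuron and axon growth genes had 0 of 18 called (median -0.03). Their 4 most abundant members, *Tuba1a*, *Tubb2b*, *Marcksl1* and *Sox4*, differed by 0.00 ± 0.20, -0.07 ± 0.18, 0.04 ± 0.11 and 0.01 ± 0.13.

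Both metabolic lists had medians below that of all genes, without a call. In cholesterol synthesis and uptake 0 of 23 members passed, the median was -0.36, and 12 were lower in all 4 cultures. *Sqle*, for squalene epoxidase, differed by -0.52 ± 0.27 (limma adjusted p = 0.249). In the amino acid stress response 0 of 22 passed, the median was -0.38, and 10 were lower in all 4 cultures. *Slc7a5*, an amino acid transporter, was at 221, 232, 217 and 121 TPM without BDNF in cultures 1 to 4 and 193, 102, 159 and 54.2 TPM with it, with the larger drops in cultures 2 and 4 (adjusted p = 0.185). *Asns*, asparagine synthetase, and *Mthfd2*, a mitochondrial folate enzyme, differed by -0.50 ± 0.27 and -0.73 ± 0.21 (adjusted p = 0.279 and 0.0718). At DIV3 the medians of the 2 lists were 0.46 and 0.89, of opposite sign to DIV5; at DIV3, 0 members of the first and 4 of the second were called higher.

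**Figure D4:**
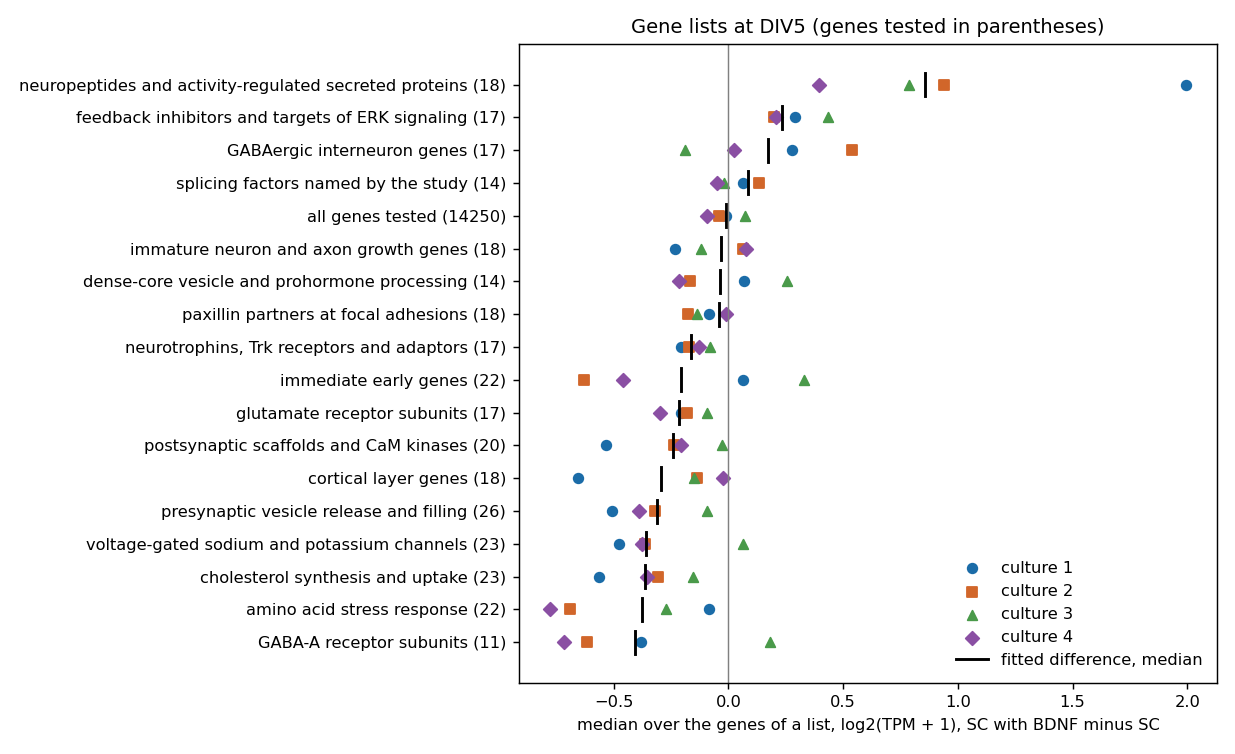
Median difference in log2(TPM + 1), SC with BDNF minus SC at DIV5, over the tested genes of each list, one symbol per culture and a black bar for the median of the fitted differences. The peptide list lies to the right in all 4 cultures (0.39 to 1.99), the ERK list lies right of 0 in all 4, and the presynaptic, postsynaptic, cholesterol and amino acid lists lie left of 0 in all 4; culture 3 (green) departs most often, for example for GABA-A subunits.

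Several genes outside the lists rose. *Nxph3*, for a secreted ligand of alpha-neurexins, was at 12.1, 34.1, 30.4 and 105 TPM without BDNF in cultures 1 to 4 and 33.7, 95.9, 60.02 and 189 TPM with it, a rise of 2.79, 2.81, 1.97 and 1.81 times in cultures that themselves ranged widely (limma adjusted p = 0.00528 with 19 and 0.0395 with 8 libraries). *Syt13*, an atypical synaptotagmin, was at 7.84, 4.32, 2.8 and 3.84 TPM without BDNF in cultures 1 to 4 and 15.5, 13.5, 6.11 and 8.52 TPM with it (adjusted p = 0.0227 and 0.0447). *Cckbr*, the brain receptor for cholecystokinin, rose by 1.15 ± 0.26 and *Pcp4*, for a regulator of calmodulin, by 0.91 ± 0.10. Of these only *Pcp4* had groups that did not overlap (adjusted p = 0.00239).

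*Col6a1*, a chain of collagen VI, was at 1.55, 3.52, 3.65 and 4.01 TPM without BDNF in cultures 1 to 4 and 18.9, 15.6, 41.3 and 9.06 TPM with it, and *Lgals1*, for galectin-1, at 2.23, 3.37, 8.11 and 7.32 TPM without BDNF in cultures 1 to 4 and 24.4, 56.8, 14.2 and 16.9 TPM with it. *Mfap4*, a protein of elastic fibers, was at 13.8, 18, 21 and 15.3 TPM without BDNF in cultures 1 to 4 and 36.2, 49.9, 35.1 and 61.1 TPM with it. Each was separate between groups (differences 2.26 ± 0.34, 2.13 ± 0.40 and 1.351 ± 0.17; limma adjusted p = 0.0145, 0.0399 and 0.00528). *Serpinf1*, for the secreted factor PEDF, rose by 1.68 ± 0.23 with overlapping groups (adjusted p = 0.00742). The 8 fibroblast and meningeal markers summed to 24.9 to 58.1 TPM without BDNF and 24.1 to 70.4 TPM with it, without a called member. The part of such cells in these genes was not tested. The rule also named *Iglon5*, a neuronal adhesion molecule (1.01 ± 0.15, adjusted p = 0.0145), *Ly6g6e* (1.17 ± 0.26) and *Gimap6*, an immune GTPase at low level (0.259, 0.0371, 0.19 and 0.16 TPM without and 0.793, 0.802, 2.84 and 0.62 TPM with BDNF). *Gimap6* passed the 1 TPM limit through libraries of other groups, since it averaged less over these 8.

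Marker lists of other cells were read beside these results. The 7 microglia markers summed to 34.9 to 87.6 TPM without BDNF and 42.9 to 161 TPM with it, and *C1qa*, the most abundant, was higher in all 4 cultures (26.5, 59.4, 21.8 and 49.5 TPM without and 62.8, 122, 29.5 and 88.3 TPM with BDNF, limma adjusted p = 0.0786). The 9 dividing progenitor markers summed to 1372 to 2434 TPM without BDNF and 1429 to 2775 TPM with it. The sum was lower with BDNF in culture 2 (2138 against 2033 TPM) and higher in the other cultures. Of these 9, 6 were higher and 1, *Nes*, was lower in all 4 cultures, without a call in the paired model, for example *Top2a* at 0.57 ± 0.16 and *Mki67* at 0.39 ± 0.19 (adjusted p = 0.0725 and 0.223). Of the 9 astrocyte markers 1 was higher and 1 lower in all 4 cultures, and *Gfap* was at 2499.9, 4292, 508 and 5053 TPM without and 2897, 2774, 454 and 4304 TPM with BDNF. The 6 endothelial markers summed to at most 12.7 TPM and the 6 red blood cell markers to at most 5.33 TPM. The part of these cells in the differences was not tested.

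The paired differences also went with transcript length. Annotated length (the longest GENCODE vM21 transcript) was found for 13288 of the 14250 genes, 93.2%. In the 3322 shortest genes, up to 2166 bases, 46 genes rose and 5 fell; in the 3322 longest, from 4820 bases, 3 rose and 41 fell. The median length was 1770 bases for genes that rose and 4602 bases for genes that fell, beside 3375 bases for all. Over all 3322 shortest genes the median difference was 0.25, 0.13, 0.09 and 0.03 in cultures 1 to 4, and over the 3322 longest -0.23, -0.16, 0.02 and -0.19. *Ndufa3*, of respiratory complex I (0.75 ± 0.13), and *Rps15*, of the small ribosomal subunit (0.51 ± 0.11), were among the genes that rose (limma adjusted p = 0.0227 and 0.0456). The part of length in the peptide, channel and synaptic results was not tested. The gap between these 2 classes was 0.49, 0.30, 0.07 and 0.22 log2 units in cultures 1 to 4, and the medians of the synaptic and channel lists lay between -0.22 and -0.41.

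**Figure D5:**
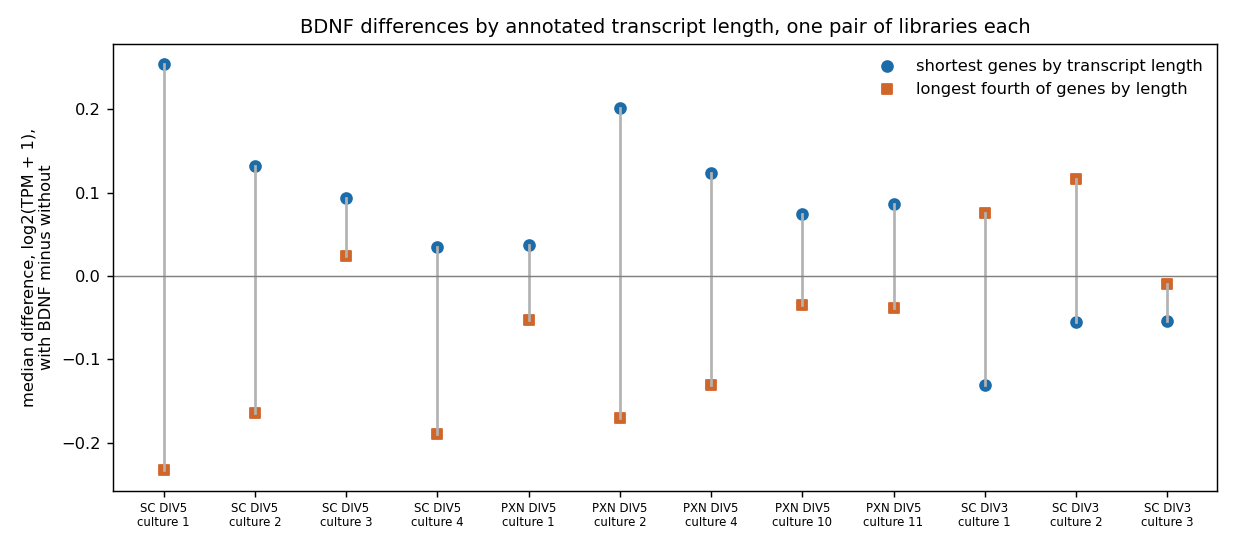
Median difference in log2(TPM + 1) with BDNF minus without, for the 3322 shortest (circles) and 3322 longest (squares) genes by annotated transcript length, one pair of libraries per position. The circle is above the square in all 4 SC pairs and all 5 paxillin siRNA (PXN) pairs at DIV5 and below it in the 3 SC pairs at DIV3.

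Cultures given paxillin siRNA offered a second set of BDNF pairs at DIV5 that shares no library with the SC groups: 6 libraries without and 5 with BDNF, in 5 pairs of which each falls within 1 range of S numbers. Cultures 1, 2 and 4 bear the same numbers as SC cultures. A paired model of these 11 libraries alone called 717 genes (5.03%), 358 higher (2.51%) and 359 lower (2.52%). Of the 20 genes called in the paired model of the 8 SC libraries, 19 had the same direction in the paxillin siRNA pairs and 14 were called there in that direction, which is 70% of the 20 and 1.95% of the 717. Over all genes tested 72.4% had the same direction in both. Of the 7 unpaired calls, 7 had the same direction and 6 were called.

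By gene, the difference over the 5 paxillin siRNA pairs ran from 1.80 to 3.21 for *Sst*, 0.84 to 2.09 for *Crh*, 0.21 to 3.42 for *Vgf* and -0.75 to 3.44 for *Npy*. The first 3 were higher in 5 of 5 pairs and *Npy* in 4 of 5. *Sst* and *Crh* were called there (2.72 ± 0.19, limma adjusted p = 0.00943, and 1.47 ± 0.19, adjusted p = 0.0196), whereas *Vgf* and *Npy* did not pass (adjusted p = 0.0565 and 0.11). *Cacna1i* was lower in 5 of 5 pairs, -2.07 to -1.08 (-1.45 ± 0.14, adjusted p = 0.0115). *Serpinf1*, which rose in SC cultures, differed by -0.41 to 0.61 in the paxillin siRNA pairs, with 2 of 5 higher.

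No gene was called for a difference in response between SC and paxillin siRNA cultures: 0 passed in the unpaired limma model (116 had an unadjusted p below 0.05) and 0 in the paired one (585 below 0.05 unadjusted). The immediate early genes had medians of -0.21 in SC and 0.58 in paxillin siRNA cultures, where 11 of 22 were called higher and 1 lower in their own paired model. In the unpaired model the response of *Fos* was -0.10 ± 0.64 in SC and 1.48 ± 0.55 in paxillin siRNA cultures, a difference of -1.58 ± 0.84. For *Egr1* the unpaired values were -0.85 ± 0.46 and 0.93 ± 0.40, a difference of -1.78 ± 0.61, and for *Npy* 3.39 ± 0.75 and 1.59 ± 0.64, a difference of 1.80 ± 0.99. The limma adjusted p of the difference was 0.9999 for *Fos*, *Egr1* and *Npy* in the unpaired model and 0.872 for each in the paired one. A missed threshold with 4 and 5 pairs does not show that the responses were equal.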

How the data were processed

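Per the submitters' processing notes and the study's methods, the authors aligned paired-end reads with STAR 2.7.10 and quantified genes with RSEM 1.3.3 on GRCm38. The deposited unit was TPM per gene, 39756 genes in 48 short-read libraries, each column summing to 1e+06. TPM keeps no read depth, so the counting precision of each value is unknown, and no count test was run. The members and gene lists were chosen with earlier results of these data known.

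TPM were transformed to log2(TPM + 1), and fold changes on this scale understate those of low genes. The 14250 genes averaging 1 TPM or more over the 48 libraries were fitted with limma 3.58.1 in R 4.3.3 (lmFit, eBayes with trend), one coefficient for each of 13 groups, with Benjamini-Hochberg adjustment over all genes and a threshold of 0.05. The script was tested on simulated data. The unpaired model was the planned one. Same-numbered SC cultures correlated in their deviations from the group means (r across genes 0.511, 0.590, 0.787 and 0.671 in cultures 1 to 4). Each correlated best with its own number (highest r with another number 0.490), so the culture number was used as a block. Same-numbered SC and paxillin siRNA libraries were tied more weakly, and those of culture 1 not best with their own number. *Pxn* was tested by an exact permutation test. At most 12 genes per direction were named, those with the largest differences among genes past the threshold whose groups did not overlap, with called list members and up to 4 abundant members of lists without a call. Applying that rule to the paired model, adding the model with a block for each culture of each siRNA and the genes named from it, and naming *Arc*, *Asns*, *Camk2a*, *Cck*, *Cckbr*, *Dusp4*, *Dusp6*, *Egr1*, *Egr2*, *Fos*, *Gad1*, *Gad2*, *Gfap*, *Inhba*, *Lhx6*, *Mki67*, *Mthfd2*, *Nab2*, *Ndufa3*, *Npas4*, *Nxph3*, *Peg10*, *Penk*, *Psph*, *Ptprk*, *Robo3*, *Rps15*, *Serpinf1*, *Slc7a1*, *Slc7a5*, *Sqle*, *Syt13*, *Top2a* and *Vip*, were choices made after the values were seen. None of the 26 mitochondrially encoded genes listed was in the table analysed here. Motifs were searched in the 250 bases before each start, not in the 50 after it as first planned. Some genes are not reported here. Long-read and other samples were not analysed here.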

Additional observations from a re-analysis of the deposited data

Results flagged for a closer look

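In 5 of 88 groups of 4 libraries tested over 44 genes, 1 library lay far from the other 3 by Dixon's ratio of its gap to the range of the group (95% critical value); about 5% of groups are flagged by chance. The ratio was 0.849 for *Col6a1* without BDNF, and with BDNF 0.850 for *Dusp5*, 0.877 for *Gimap6*, 0.852 for *Mafa* and 0.921 for *Rorb*.

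The BDNF response of SC cultures differed between DIV5 and DIV3 for 14 genes by the test of that difference, all with the lower value at DIV5. On the log2 scale, DIV5 minus DIV3, the transcription factor genes *Egr2* and *Egr1* differed by -5.19 and -4.99, *Arc* by -4.27, *Peg10* by -3.66 and the galanin receptor gene *Galr1* by -2.94. *Slc7a1* differed by -2.32, *Fibcd1* by -2.25, *Gpr63* by -2.09, *Fam131a* by -2.07 and *Nab2* by -1.99. The smallest differences were -1.67 for *Galnt7*, -1.40 for *Psph*, -1.38 for *Clcn5* and -0.999 for *Efr3a*.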

How the results depend on the processing

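The unpaired count of 7 genes became 12 with no filter, 4 after median ratio rescaling, 0 in a fit of the 8 SC libraries, 19 with a factor for the S-number range, 0 with cultures 3 and 4 only and 14 with cultures 1 and 2 only. With the culture number as a replicate block it was 20 in 8 and 176 in 19 libraries, and 1 with the block and a term for S numbers above 60. Leaving out 1 library gave 0 to 159: without BDNF, 0, 1, 11 and 159 without cultures 1 to 4, and with BDNF, 3, 2, 144 and 4. The paired count of 176 was 21 with no filter, 1513 with a replicate block for each culture of each siRNA and 1 with the S-number term. With both, which leaves the SC difference to cultures 3 and 4, it was 0. Without the SC and PXN libraries of each number 1 to 4 in turn it was 1, 3, 1599 and 984. The paired count of 20 was 0 with no filter, and 0 to 1533 without 1 culture. The 14 genes that differed from DIV3 became 31 with no filter, 23 after rescaling, 59 with the replicate block, 80 with the S-number factor, and 5 to 88 without 1 library. Comparisons with DIV10 and paxillin siRNA stayed at 0 calls in each setting run, the replicate block included for the latter. The *Pxn* difference of -0.03 had p = 0.875 in an exact permutation of signs with the replicate block (smallest possible 0.125) and ran from -0.14 to 0.14 without 1 library. The cause of these changes was not tested. Depth, which TPM does not hold, could not be weighed.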
